A study of Mus musculus with 4 samples.

Results

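The trace amine-associated receptors (TAARs) measured here were 10 mouse genes, *Taar2*, *Taar3*, *Taar4*, *Taar5*, *Taar6*, *Taar7b*, *Taar7d*, *Taar8b*, *Taar8c* and *Taar9*, chosen by gene symbol from a matched accession. Among 56605 array probes, which gave 45616 genes, 9 of the 10 members had a probe, 1 probe each, and no probe carried the accession of *Taar8c*. A symbol was matched for 58.3% of the probes, and each other probe kept the array's own identifier as its gene. Shares and medians over all genes therefore include such unnamed entries. RNA came from the septal nasal mucosa, labelled as olfactory epithelium, of C57BL/6J mice that were young adult (8 weeks old) or aged (16 months old). Each age had 2 arrays, each hybridized with RNA pooled from 5 mice, and the animals were described as male C57BL/6. The study's methods count fewer mice per age for gene analyses than separate pools of this size would need. The pools of an age may therefore share mice, and the SD and P values measure only the spread between pools. One label field described silica aspiration in lung cells, which matched neither the tissue nor the remaining labels.

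TAARs are G protein-coupled receptors that detect volatile amines. Except for *Taar1*, they are made by olfactory receptor neurons (ORNs), mostly in the dorsal olfactory epithelium, and a neuron makes a single receptor type. The signal passes through the olfactory G protein, adenylate cyclase 3 and a cyclic nucleotide-gated channel, as it does for odorant receptors. *Taar2*, *Taar3* and *Taar4* belong to the branch that binds mainly primary amines, whereas *Taar5* to *Taar9* belong to the branch that binds mainly tertiary amines. *Taar5* is the receptor for trimethylamine, *Taar4* for phenylethylamine and *Taar3* for isoamylamine.

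The genes lie in one cluster on mouse chromosome 10. The starts of the members called between ages are shown first, because these are the receptors on which the results turn. They are genomic RefSeq sequences of the GRCm38.p6 assembly, 50 bases from the start codon, which is in capitals. *Taar2* starts at chr10:23938572-23938621 and *Taar5* at chr10:23970706-23970755, both on the plus strand.
Taar2: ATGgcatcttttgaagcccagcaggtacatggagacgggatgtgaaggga
Taar5: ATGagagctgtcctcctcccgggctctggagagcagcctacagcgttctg
Read in frame, the *Taar2* line met a stop codon at codon 15, so it is not coding over its whole length; the coding region of *Taar2* is split by an intron. The *Taar5* line had no stop codon in frame.

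The starts of *Taar7b*, *Taar7d*, *Taar7e* and *Taar7f* are shown because the probes of these genes may share targets. In the lines that follow, capitals mark the bases that differ from *Taar7b*, whose start is at chr10:23999939-23999988 on the plus strand. *Taar7d* starts at chr10:24027222-24027271, *Taar7e* at chr10:24037614-24037663 and *Taar7f* at chr10:24049510-24049559, also on the plus strand.
Taar7b: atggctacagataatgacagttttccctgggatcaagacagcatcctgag
Taar7d: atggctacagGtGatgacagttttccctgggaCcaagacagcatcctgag
Taar7e: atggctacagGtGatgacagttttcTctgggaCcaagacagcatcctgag
Taar7f: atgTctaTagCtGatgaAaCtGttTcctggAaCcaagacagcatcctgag
Over these 50 bases, *Taar7d* differed from *Taar7b* at 3 positions and from *Taar7e* at 1. *Taar7f* differed from *Taar7b* at 10. *Taar7a*, whose start is not shown, was less alike and differed from *Taar7b* and from *Taar7d* at 20. The probe sequences were not used here, so cross-detection among the Taar7 copies, or among the Taar8 copies, was not tested.

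The 4 arrays differed in background. Of the non-control spots, 63.1% to 76.8% were well above background by the scanner software. The local background had a median of 67 and 32 for young arrays 1 and 2, and of 63 and 39 for aged arrays 1 and 2. Young array 1 and aged array 1 shared a slide, and the other arrays each had their own. *Xist*, the RNA that silences the inactive X chromosome, was at 612 to 645 on the 4 arrays, while the 7 probes of 4 Y-linked genes were well above background on 0 arrays, which goes against the description of the mice as male at both ages. The 8 markers of mature ORNs were well above background on all 4 arrays, so the labelled tissue had its defining neurons.

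TAAR signals ranged from the level of that background to well clear of it. The *Taar2*, *Taar7d* and *Taar9* probes were well above background on all 4 arrays. The *Taar5*, *Taar7b* and *Taar8b* probes passed on 3 arrays and missed on aged array 1 in each case. *Taar4* passed on 2 arrays, the second of each age, *Taar6* on young array 2 only and *Taar3* on none. The median spot signal of *Taar2* was 8.11 and 14.4 times its local background on the young arrays and 4.38 and 6.77 times on the aged arrays. For *Taar5* this ratio was 2.43 and 4.34 on the young arrays and 1.63 and 1.79 on the aged arrays. Both young arrays exceeded both aged arrays for these 2 receptors before any normalization.

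**Figure D1:**
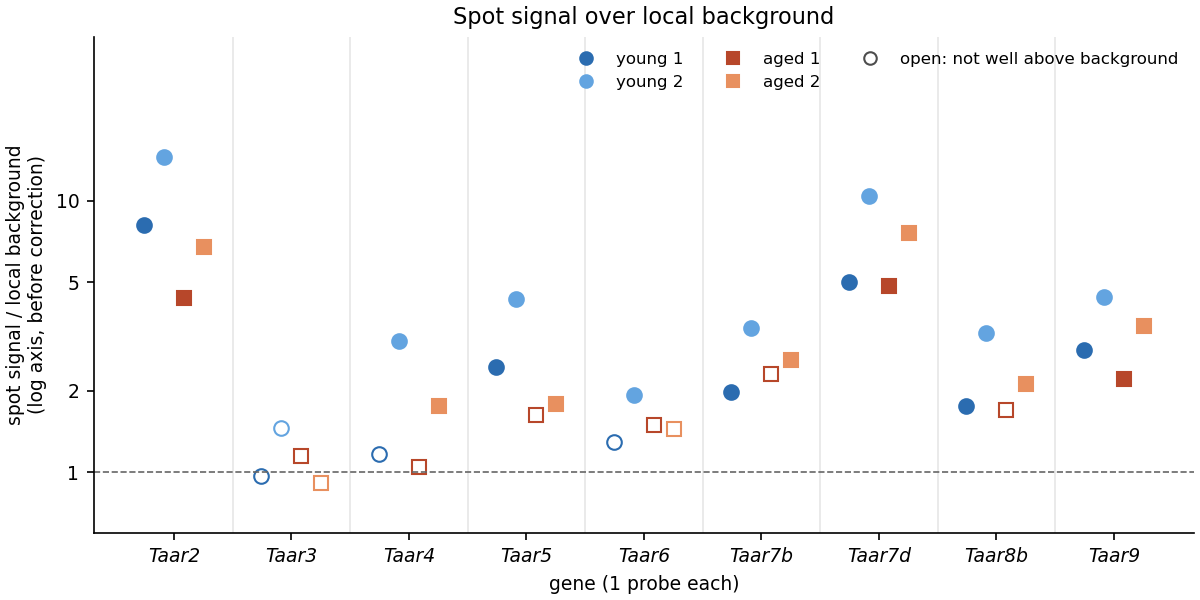
Median spot signal divided by the median local background for the TAAR probes on each of the 4 arrays (log axis), before normalization; circles are young and squares aged arrays, open where the probe was not well above background. The *Taar2* probe stood between 4.38 and 14.4 times its background, whereas the *Taar3* probe stood between 0.911 and 1.46.

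*Taar2* and *Taar5* were lower in aged mucosa, and no TAAR was higher by the test. The level given from here on is the normalized intensity of a probe on one array, and the fold change is the aged over the young level on a log2 scale from limma. The call limits, taken from the study's methods, were P under 0.05 with a false discovery rate (FDR) under 0.25 across the whole gene table. By these limits 2 of the 9 measured members were called lower and 0 were called higher, while 2.33% of all 45616 genes were called lower and 1.65% higher. At an unadjusted P below 0.05, 2 members were lower and 0 were higher, while 7.09% of all genes were lower and 6.05% higher. Fitted probe by probe, the same 2 members were called lower and 0 higher, while 2.65% of all probes were called lower and 1.84% higher. With 1 probe per member, that fit used the same values and gave the same log2 fold changes, so it is no separate support. RNA of whole mucosa was measured, so fewer cells of a type and less RNA per cell cannot be told apart.

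*Taar2*, an amine receptor, had levels of 472 and 458 on the young arrays. On the aged arrays its levels were 249 and 262. The groups did not overlap, and the means were 465 ± 9.90 (SD, n = 2) in young and 256 ± 9.67 (SD, n = 2) in aged mucosa. The aged level was 0.549 of the young level, a log2 fold change of -0.86 (SE 0.081, 95% interval -1.11 to -0.62, limma FDR = 0.178). The log2 difference was -0.92 between the arrays that shared a slide and -0.80 between the other pair. Of all genes, 722 had a lower log2 fold change than *Taar2*, as did 26 of the 1080 olfactory receptor genes. It also passed the study's limits on mean level (100) and fold change (1.5).

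*Taar5*, the trimethylamine receptor, had levels of 121 and 119 in young mucosa and 66.7 and 54.9 in aged mucosa. Both young levels exceeded both aged levels. Aged array 1 was not well above background for this probe, so only 1 of the 2 aged levels was measured clear of it. The means were 120 ± 1.2 (SD, n = 2) and 60.8 ± 8.3 (SD, n = 2), and the log2 fold change was -0.99 (SE 0.13, 95% interval -1.38 to -0.60, limma FDR = 0.203). Within the shared slide the log2 difference was -0.86, and between the other arrays it was -1.12. Its mean level over the 4 arrays was 90.5, under the study's limit of 100.

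With any 1 array left out, young or aged, 1 age has a single array and the spread comes from the other age alone. In each of these fits 0 of the 45616 genes were called, so the loss was not particular to TAARs, and the FDR of *Taar2* and *Taar5* lay between 0.404 and 0.683. The direction could not reverse, because both young levels exceeded both aged levels for each gene, so it is no further support. The log2 fold changes ran from -0.90 to -0.83 for *Taar2* and from -1.13 to -0.85 for *Taar5*. With 2 arrays against 2, an exact permutation test cannot go below 0.333.

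**Figure D2:**
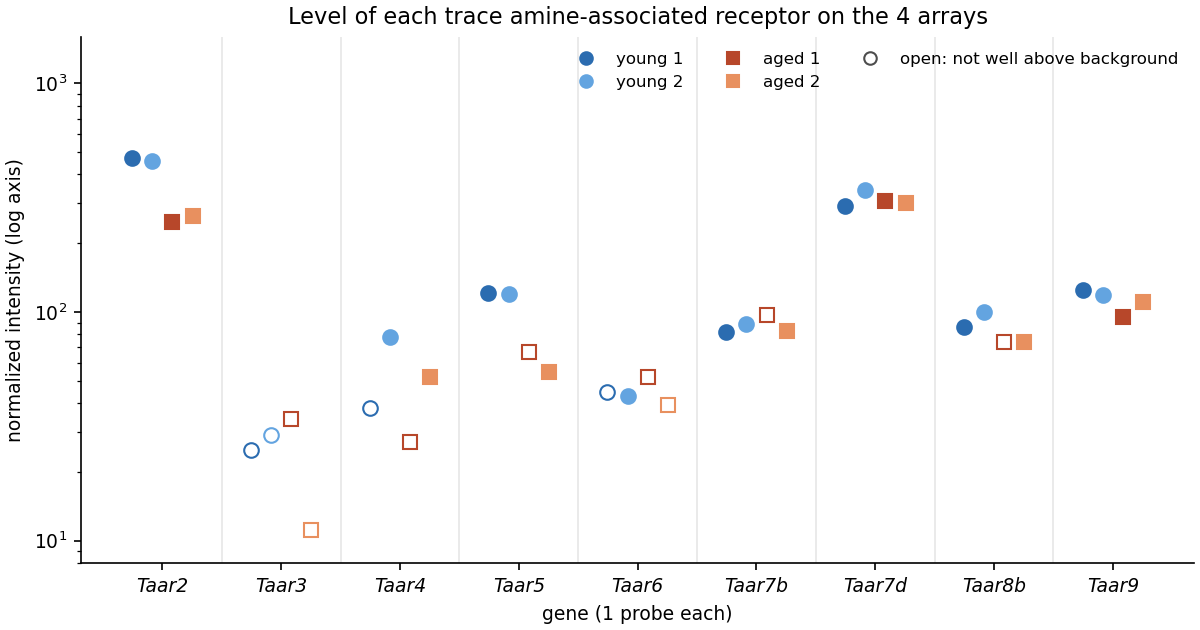
Normalized intensity (log axis) of each measured TAAR on the 2 young and 2 aged arrays, with open symbols where the probe was not well above background. Levels of different probes cannot be set against each other. The young points of *Taar2* (472 and 458) and of *Taar5* (121 and 119) lie above their aged points (249 and 262, and 66.7 and 54.9).

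The other receptors measured on 3 or 4 arrays differed less. *Taar9*, of the tertiary-amine branch, had levels of 125 and 119 in young and 95.4 and 111 in aged mucosa, a log2 fold change of -0.25 (95% interval -0.59 to 0.10, limma FDR = 0.492). *Taar8b*, of the same branch, had levels of 86.0 and 100 in young and 74.0 on both aged arrays, a log2 fold change of -0.33 (95% interval -0.66 to 0.01, limma FDR = 0.389). Both aged arrays were below both young arrays for each of the 2 genes, but neither was called, and the scanner software flagged the background of the *Taar8b* spot on all 4 arrays. In all, 4 of the 9 members had aged levels below both young levels (*Taar2*, *Taar5*, *Taar8b* and *Taar9*) and 0 had them above, while 21.8% of all genes did so downwards and 24.2% upwards.

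The Taar7 members moved little. *Taar7d* had levels of 292 and 341 in young and 306 and 300 in aged mucosa. The groups overlapped, and the log2 fold change was -0.06 (95% interval -0.40 to 0.28, limma FDR = 0.850). *Taar7b* had levels of 82.1 and 88.7 in young and 97.0 and 82.9 in aged mucosa, which overlapped as well, with a log2 fold change of 0.07 (95% interval -0.29 to 0.44, limma FDR = 0.833). Its highest level, 97.0, came from aged array 1, where its probe was not well above background, and without that array the log2 fold change was -0.042. The lower bound of the *Taar7d* interval, -0.40, lay above the *Taar2* and *Taar5* estimates; the difference between genes was not tested.

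The dimmest probes gave little information. *Taar4*, the phenylethylamine receptor, had levels of 38.1 and 77.4 in young and 27.0 and 52.2 in aged mucosa, higher on the second array of each age, which were also the arrays with the lower background and the ones where it was detected. Its log2 fold change was -0.53 (95% interval -2.15 to 1.08, limma FDR = 0.719), and it ran from -1.04 to -0.022 with 1 array left out. The log2 difference was -0.50 between the arrays that shared a slide and -0.57 between the other pair. *Taar6* had levels of 44.9 and 42.7 in young and 52.2 and 39.4 in aged mucosa (limma FDR = 0.924), and since neither aged array was well above background no fold is given. *Taar3* had levels of 25.0 and 29.0 in young and 34.1 and 11.2 in aged mucosa (limma FDR = 0.788); its aged arrays were its highest and its lowest value, and no fold is given because it passed the background test on 0 arrays. Fitted differences of *Taar3* and *Taar6* are plotted with the others for completeness and are not folds of these genes. *Taar8c* was not measured.

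The 5 TAAR genes of the cluster outside the members with a probe were not called. *Taar7a*, a neighbour in the Taar7 group, had levels of 311 and 356 in young and 313 and 275 in aged mucosa, a log2 fold change of -0.18 (limma FDR = 0.621). *Taar7f* had levels of 175 and 186 in young and 159 and 147 in aged mucosa, a log2 fold change of -0.24 (limma FDR = 0.424). *Taar7e* was at a log2 fold change of 0.03 (limma FDR = 0.955). *Taar1*, the member of the family not used as an olfactory receptor, and *Taar8a* passed the scanner's background test on 0 arrays.

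In the order of the cluster, *Taar2* and *Taar5* were separated by *Taar3* and *Taar4*, which were not called. The genes that flank the cluster with a probe were not called either. *Vnn3* and *Vnn1*, vanin genes beside *Taar1*, had log2 fold changes of -0.45 (limma FDR = 0.294) and -0.40 (limma FDR = 0.401). On the other side *Stx7*, a syntaxin of endosomes, was at -0.21 and *Moxd1*, a monooxygenase-like gene, at 0.44 (limma FDR = 0.277).

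**Figure D3:**
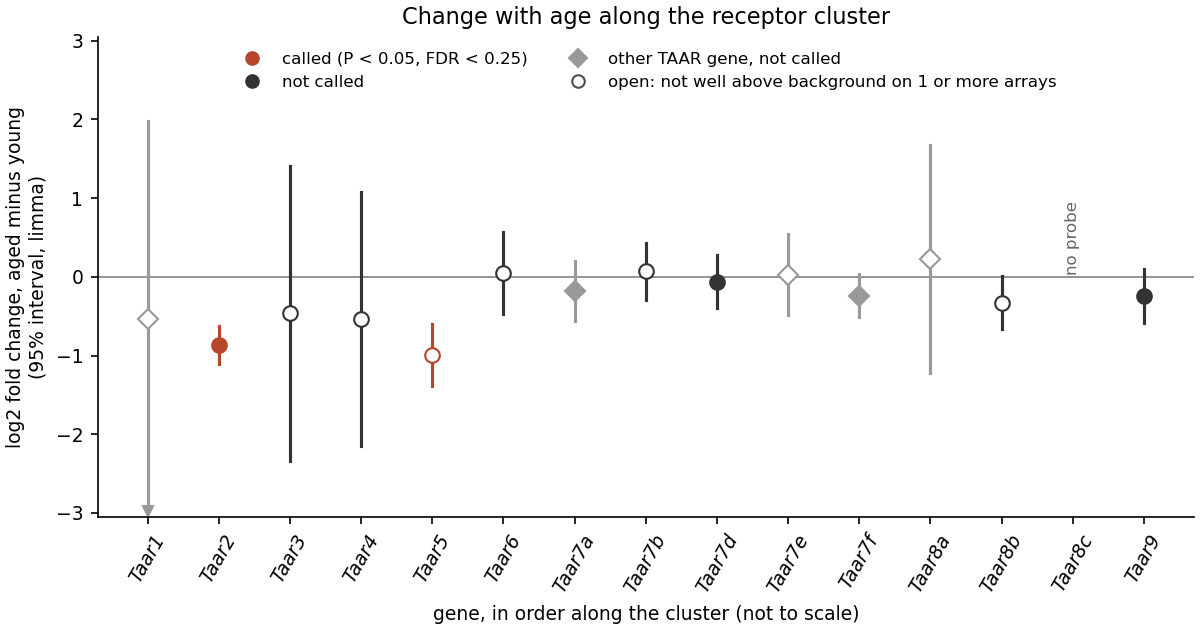
Log2 fold change (aged over young) of the TAAR genes, in the order in which they lie on chromosome 10 and not to scale, with 95% intervals cut at the axis limits. Circles are the members, diamonds the other TAAR genes, and open symbols mark probes not well above background on 1 or more arrays. *Taar2* at -0.86 and *Taar5* at -0.99 have intervals below 0, while that of *Taar4* spans 0; points of *Taar1*, *Taar3*, *Taar6* and *Taar8a* are of probes at or near background and are not folds.

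Across the 9 measured TAARs, the log2 fold changes had a median of -0.33, with 7 lower and 2 higher in aged mucosa, against a median of 0.009 over all genes; these counts include *Taar3* and *Taar6*, whose fitted differences are not folds. Over all genes, 1.65% were called higher and 2.33% lower. The 1080 olfactory receptor genes had a median of 0.11, and 118 of them (10.9%) were called higher and 40 (3.70%) lower. Vomeronasal receptors of type 1 (170 genes) had a median of -0.07, with 3 (1.76%) called higher and 2 (1.18%) lower. Those of type 2 (92 genes) had a median of -0.11, with 0 called higher and 1 (1.09%) lower. The 6 measured formyl peptide receptors, which include receptors of vomeronasal neurons, were lower in all 6 cases with a median of -0.42, but 0 were called. Only 1 of these 6 passed the background test on all 4 arrays, so their differences are mostly of dim probes. No array passed for 113 type 1 and 67 type 2 vomeronasal genes, or for 249 olfactory receptor genes. These medians are descriptions, and differences between families were not tested.

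**Figure D4:**
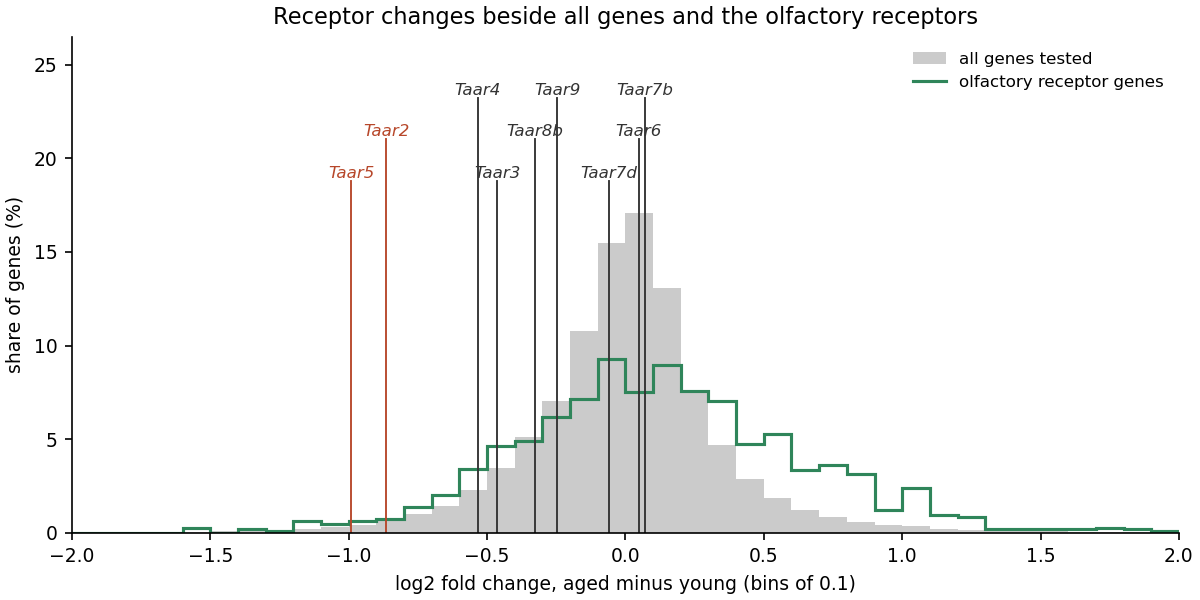
Distribution of the log2 fold change (aged over young) of all 45616 genes and of the 1080 olfactory receptor genes, with the 9 TAARs marked by vertical lines; the axis is cut at 2 either way. *Taar5* and *Taar2* lie in the lower tail, *Taar7b* and *Taar7d* near 0.

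The machinery that TAAR neurons share with other ORNs was not lower in aged mucosa. Of 16 olfactory transduction genes, 16 had a log2 fold change above 0, with a median of 0.22. Only 1 was called, beside 1.65% of all genes called higher. *Stoml3*, a stomatin-like protein of olfactory cilia, rose by a log2 fold change of 0.43 (limma FDR = 0.243). *Gnal*, the olfactory G protein subunit, was at 0.05 (limma FDR = 0.810), *Adcy3*, the cyclase, at 0.32 (limma FDR = 0.289), *Cnga2*, the channel, at 0.08 (limma FDR = 0.726) and *Omp*, the marker of mature ORNs, at 0.15 (limma FDR = 0.549). With values taken relative to the 8 mature ORN markers on each array, a setting chosen after seeing the data, 4 members were called lower (*Taar2*, *Taar5*, *Taar8b* and *Taar9*), while 20.5% of all genes were called lower in that setting and the median of all genes was -0.22. The 13 genes of receptor choice and feedback had 0 calls and a median of 0.05.

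Zone markers showed no called change. *Nqo1*, an enzyme of the dorsal zone where TAAR neurons lie, was at a log2 fold change of -0.32 (limma FDR = 0.351) and *Acsm4*, also dorsal, at 0.17 (limma FDR = 0.474). Of the ventral zone genes, *Ncam2* was at 0.40 (limma FDR = 0.427) and *Nrp2* at -0.032 (limma FDR = 0.897). Of 16 genes of amine synthesis and breakdown, 2 fell and 0 rose by the test, beside 2.33% and 1.65% of all genes. By sign 8 of the 16 were higher and 8 lower, with a median of -0.01. *Aoc3*, a copper amine oxidase, fell by 0.83 on the log2 scale (limma FDR = 0.190) and *Aoc1*, a diamine oxidase, by 0.56 (limma FDR = 0.206).

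Markers of other cells also moved with age, and their part in the TAAR results was not tested. The summed level of the 6 immature ORN markers was 44610 to 46193 in young and 36902 to 37667 in aged mucosa, with 1 of 6 called lower. The 7 markers of basal and progenitor cells summed to 30427 to 31034 in young and 24200 to 24790 in aged mucosa, with 2 called lower. By sign 5 of the 7 were lower and 2 higher, *Trp63* and *Neurod1*. The 5 bone markers summed to 4408 to 4464 and 2263 to 2382, with 3 called lower and 1, the dim *Sost*, higher by sign. The 6 pituitary markers summed to 1142 to 1214 and 9284 to 9805, with 2 called higher. Such sums are led by the brightest probes. By the same limits 2.33% of all genes were called lower and 1.65% higher. The 6 sustentacular markers had 1 called higher, as had the 5 vomeronasal markers, and the 5 multiciliated markers had 0 calls.

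The calls on *Taar2* and *Taar5* were repeated under other ways of treating the same spots. Over 18 settings the log2 fold change of *Taar2* ran from -1.09 to -0.75, and it was called in 12 of the 17 with a test. That of *Taar5* ran from -1.39 to -0.62, and it was called in 11 of 17. *Taar8b* was lower in all 18 settings and called in 5 of 17, while *Taar7b* and *Taar7d* changed sign between settings. For *Taar2*, *Taar5* and *Taar8b* the direction could not reverse on the shared slide or with an array left out, so it is no further support. Several other settings changed only the test and not the estimate. The counts of calls include the setting relative to the mature ORN markers, chosen after seeing the data, where 20.5% of all genes were called lower. They also include the setting with only probes above background, which kept a probe that passed on both arrays of either age. *Taar5* and *Taar8b* were kept there through the young arrays alone, so their calls in that setting are no support.

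**Figure D5:**
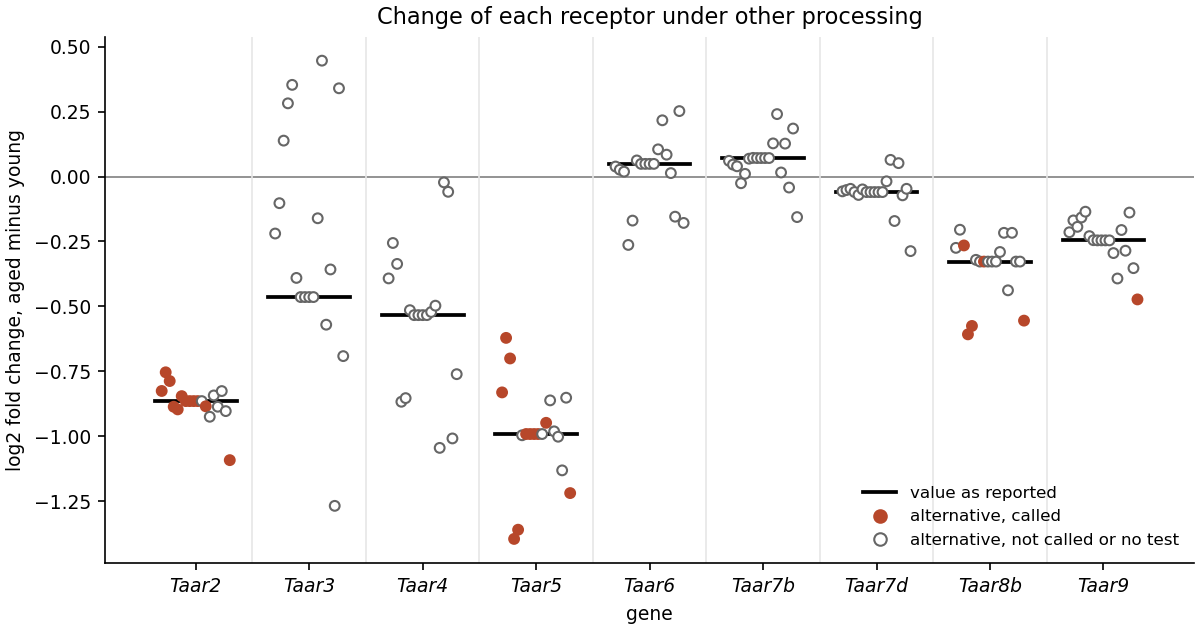
Log2 fold change (aged over young) of each measured TAAR under the main processing and every alternative, with settings in which the gene was called marked. *Taar2* spans -1.09 to -0.75 and *Taar5* -1.39 to -0.62; points of *Taar3* and *Taar6* are of probes at or near background and are not folds.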

How the data were processed

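The authors extracted RNA, labelled it with Cy3, hybridized 4 one-color arrays and deposited, per the file headers, spot intensity values from Agilent Feature Extraction 11.0.1.1: the median signal, local background, processed signal and flags, not normalized between arrays. The whole-series table equalled the processed signal at all 62976 spots. No background method is given in the sources used here. In R 4.3.3, limma 3.58.1 was used to correct the background (normexp, offset 0). Control spots and flagged outlier spots (88 to 118 per array) were left out. Spots of a probe were averaged, log2 intensity was quantile normalized and probes of a gene were averaged. Ages were compared by lmFit and eBayes on all 4 arrays without covariates. Tested on simulated data, the fit recovered part of the changed genes and called some unchanged ones. Probe accessions were matched to RefSeq (32994 of 56605 probes, 58.3%); the array design used another build, so only the printed RefSeq sequences carry coordinates. Arrays were grouped by the age in their labels. Every member is named, with the other TAAR genes, fixed defining genes and called members of related lists; 1 of the defining genes is not reported here. Members and lists were chosen with earlier results of these data known. Precision is limited by there being 4 arrays and, for dim probes, by the background. Alternatives covered background, normalization, flags, dim probes, slide, pairing and each array left out.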

Additional observations from a re-analysis of the deposited data

How the results depend on the processing

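The number of members called lower, 2, was 1 under 75th percentile scaling, where *Taar5* had a limma FDR of 0.307, and 0 with the replicate block, where *Taar2*, *Taar4* and *Taar5* had an unadjusted P below 0.05 and an FDR of 0.433 each. It was 3, with *Taar8b* added, under no background correction, either processed-signal setting and only probes above background. That last setting kept a probe well above background on both arrays of either age. *Taar5*, *Taar7b* and *Taar8b* were kept through the young arrays alone, so the calls of *Taar5* and *Taar8b* there are no support. The number called lower was 4 relative to the mature ORN markers, as was the number with an unadjusted P below 0.05. With each array left out in turn it was 0 (range 0 to 0), and so were the calls over all genes, of which 3289 to 5317 had an unadjusted P below 0.05. The replicate block also called 0 genes higher and 0 lower, with 5197 below 0.05 unadjusted. Same-numbered arrays did not deviate together (correlation -0.078), and the labels tie the number to no batch; the arrays numbered 1 shared a slide, the arrays numbered 2 did not. The member median, -0.33, was -0.17 with an offset of 50, -0.19 with no background correction, -0.17 with quantile-normalized processed signal, -0.55 relative to the ORN markers and -0.44 to -0.15 with an array left out.

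Genes called higher and lower numbered 754 and 1063. They were 1298 and 1693 with an offset of 16, 2107 and 2478 with an offset of 50, 1788 and 2241 with no background correction, 2030 and 2346 with quantile-normalized processed signal, 3446 and 3707 with only probes above background, 3607 and 3517 with an intensity trend, and 3598 and 4173 with the slide as a block at a preset correlation of 0.5. Relative to the ORN markers 9372 were lower.

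Fitted differences of *Taar3* and *Taar6*, whose probes were at or near background, are not folds of these genes and are listed only for completeness. *Taar3* went to 0.14 with no background correction, 0.28 and 0.35 with processed signal scaled or quantile normalized, 0.45 on the shared slide and 0.34 without aged replicate 2 (range -1.27 to 0.34 with an array left out). *Taar6* went to -0.26 and -0.17 with processed signal scaled or quantile normalized, -0.15 without aged replicate 1 (range -0.15 to 0.25) and -0.18 relative to the ORN markers. *Taar7b* reversed to -0.026 with scaled processed signal, -0.042 without aged replicate 1 (range -0.042 to 0.18) and -0.16 relative to the ORN markers, and *Taar7d* to 0.064 on the shared slide and 0.052 without young replicate 2 (range -0.17 to 0.052). The causes were not tested. The slide as a random block was not run, because its correlation could not be estimated from 4 arrays. The preset correlation and the ORN marker scaling were chosen after seeing the data.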
